A study of Homo sapiens with 6 samples.

Results

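The AADAC family of serine esterases was followed in clones of MDA-MB-231, a cultured human cell line from an invasive breast cancer that lacks hormone receptors, through the probe sets whose platform gene symbol is AADAC, AADACP1 or NCEH1. Each of these 3 genes had 1 probe set of its own, which makes 3 of the 54613 probe sets that are not controls (3 of 19775 genes). No probe set with several symbols named any of them. The genes were chosen from earlier results of these same arrays, where AADAC and AADACP1 were among the largest decreases, so their levels and differences are a description and carry no test.

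Knockdown clones carried a retroviral pSM2 vector with either of 2 short hairpin RNAs against WASF3, a WAVE protein that drives branched actin growth. Control clones carried the empty pSM2 vector or a hairpin against GFP. Every clone in either group had been infected, kept in 1.0 µg/ml puromycin for 2 weeks and expanded from a single cell at passage 4, and each group held 3 clones with 1 array per clone. The labels do not tie a clone to its hairpin or control vector. Each clone grew from a single infected cell, so the spread between arrays is that between clones, and no clone was measured more than once.

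AADAC, arylacetamide deacetylase, is an esterase of the endoplasmic reticulum membrane with its active site in the lumen. It is best known from liver and intestine, where it hydrolyses arylacetamide and ester drugs and is linked to the mobilisation of stored triacylglycerol. NCEH1 (also named AADACL1 or KIAA1363) belongs to the same family and membrane, and is known for hydrolysing cholesteryl esters in macrophages and the ether lipid 2-acetyl monoalkylglycerol in aggressive cancer cells. AADACP1 is a transcribed pseudogene related to AADAC and encodes no known protein of this family. All 3 lie on chromosome 3. AADACP1 and AADAC are next to each other, with 0 genes of the RefSeq table between them, whereas 284 RefSeq genes separate AADAC from NCEH1.

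The bases just before the start sites of AADAC and NCEH1 are shown because the groups of clones did not overlap on AADAC and did on NCEH1. RefSeq promoter entries (GRCh38.p14) matched 2 of the 3 genes. The 250 bases before the start are printed on the strand of the gene, AADAC from chr3:151813866-151814115 on the plus strand and NCEH1 from chr3:172711068-172711317 on the minus strand. Capitals mark matches to any of the motifs searched.
AADAC: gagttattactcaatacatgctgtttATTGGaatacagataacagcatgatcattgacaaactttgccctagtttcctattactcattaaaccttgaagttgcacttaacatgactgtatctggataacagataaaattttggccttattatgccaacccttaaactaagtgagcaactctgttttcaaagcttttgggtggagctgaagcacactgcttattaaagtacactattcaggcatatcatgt
NCEH1: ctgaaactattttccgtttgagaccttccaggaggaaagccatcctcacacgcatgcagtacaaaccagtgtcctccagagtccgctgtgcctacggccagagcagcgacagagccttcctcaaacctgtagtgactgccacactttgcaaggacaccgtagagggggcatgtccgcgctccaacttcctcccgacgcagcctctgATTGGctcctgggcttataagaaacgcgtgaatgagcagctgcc
The AADAC stretch had a GC content of 35.6% and held 0 CpG dinucleotides. The NCEH1 stretch had a GC content of 56.0% with 12 CpG dinucleotides, close to the medians of 58.0% and 11 over the 35116 promoters of the table. Both strands were searched for the TATAAA element of core promoters, the CCAAT box, the HNF1 half-site GTTAAT, the nuclear receptor half-site AGGTCA and the AP-1 site TGANTCA. The capitals in both stretches are CCAAT on the opposite strand, 220 to 224 bases before the AADAC start and 40 to 44 bases before the NCEH1 start, and 32.0% of all promoters held CCAAT in a window of this length. The other motifs had 0 matches in either stretch. Of all promoters, 10.7% held the core promoter element, 6.23% the HNF1 half-site, 12.1% the nuclear receptor half-site and 6.57% the AP-1 site. None of these motifs overlaps another in the printed stretches. A match or its absence describes the letters of this window and was not tied to any factor.

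WASF3 itself, on its single probe set 204042_at, read 5.40, 5.80 and 4.52 in knockdown clones 1, 2 and 3 and 6.77, 6.42 and 6.59 in control clones 1, 2 and 3 on the log2 scale. Every knockdown clone lay below every control clone, with 43.8%, 57.5% and 23.8% of the control signal left. The difference of −1.35 (SE 0.29) did not pass over all probe sets (limma, adjusted p = 0.102), and the exact two-sided permutation test gave 0.1, the smallest value 3 against 3 allows. Without knockdown clone 3 it was −0.99 and passed (limma, adjusted p = 0.0175), as it did with array weights (−1.16, adjusted p = 0.0359). WASF2 of the same family gave −0.55 (SE 0.10, limma adjusted p = 0.0715) and passed in 4 of 13 alternative fits. The array medians lay between 5.12 and 5.17. The control probe sets for GAPDH and ACTB gave an index of 3′ minus 5′ signal, a sign of RNA quality, of 1.62 to 2.11 in knockdown and 1.13 to 1.47 in control clones, so this index differed between the groups without overlap. Of 9 mesenchymal markers of the line, 8 had a mean above 5, with VIM at 14.3 ± 0.04 (SD, n = 3) in control clones, and SPARC was low at 4.87 ± 0.04. The luminal breast list was not low as a whole, with a mean of 7.61 to 7.74 over its 8 measured genes in control clones, GATA3 at 7.37 ± 0.10 and the progesterone receptor PGR at 3.31 ± 0.09. In knockdown clones the luminal list mean ran from 7.39 to 8.06, on both sides of the control clones. Its differences ran from −0.58 to 0.54. By unadjusted p under 0.05, 1 luminal gene was higher and 2 lower, against 9.11% and 7.67% of all genes. Of the 9 mesenchymal genes, 0 were higher and 2 lower by that measure. Lowest unadjusted p in these 2 marker lists belonged to SPARC (−0.47), ANXA1 (−0.32), KRT8 (−0.58) and KRT18 (−0.47). None of the 4 passed in limma (adjusted p from 0.155 to 0.322). KRT8 passed without knockdown clone 1 (−0.73, limma adjusted p = 0.0447).

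AADAC was measured by probe set 205969_at. Its log2 signal was 6.51, 6.36 and 6.70 in control clones 1, 2 and 3 and 3.84, 3.82 and 3.49 in knockdown clones 1, 2 and 3. The groups lay 2.52 log2 units apart at their closest clones. The means were 6.52 ± 0.17 in control and 3.72 ± 0.20 in knockdown clones (SD, n = 3), a difference of −2.81 (SE 0.13), which leaves 14.3% of the control signal. By clone, 15.6%, 15.4% and 12.2% of the control mean was left in knockdown clones 1, 2 and 3. On the control arrays 66.2% to 69.3% of all probe sets read lower than AADAC, and on the knockdown arrays 22.0% to 29.2% did. RMA values carry no detection call, so whether AADAC exceeds background in knockdown clones is unknown, and the change is understated if it does not.

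AADACP1 was measured by probe set 1569582_at. Its log2 signal was 7.16, 7.20 and 7.31 in control clones 1, 2 and 3 and 4.27, 4.29 and 4.32 in knockdown clones 1, 2 and 3. The knockdown clones were almost level with each other, and the gap to the lowest control clone was 2.83 log2 units. The means were 7.22 ± 0.08 and 4.29 ± 0.03 (SD, n = 3), a difference of −2.93 (SE 0.09) or 13.1% of the control signal. By clone, 12.9%, 13.1% and 13.4% was left. As for AADAC, the knockdown level may or may not exceed background, and 36.5% to 37.3% of all probe sets read lower on those arrays.

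**Figure D1:**
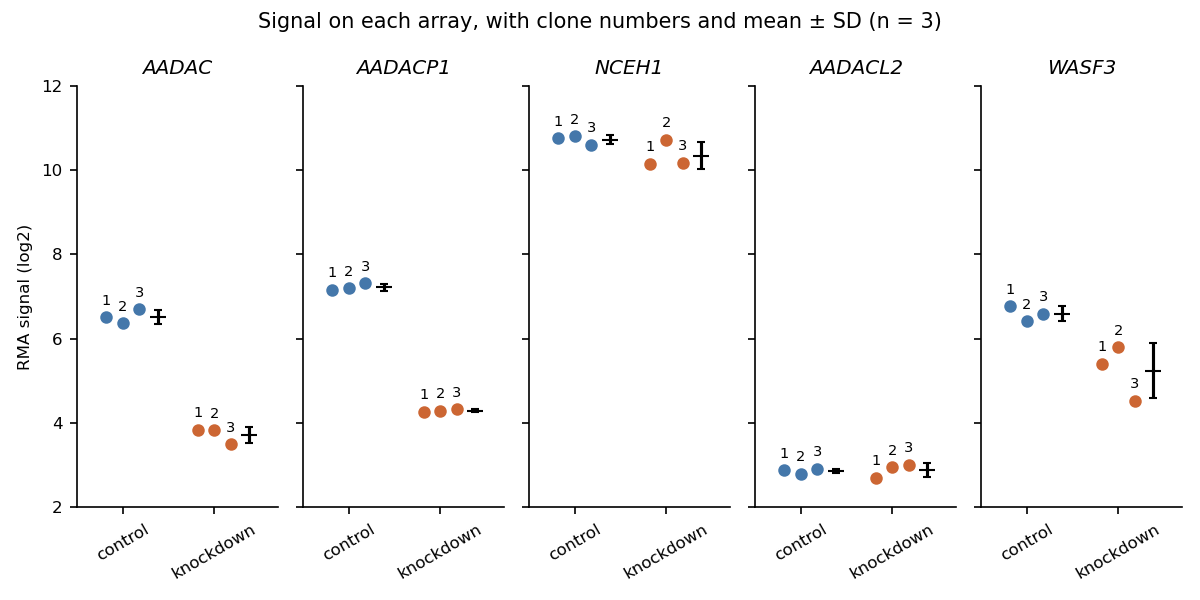
RMA signal on the log2 scale (vertical axis) of AADAC, AADACP1, NCEH1, the relative AADACL2 and the knockdown target WASF3 on each array, with points numbered by clone and the mean ± SD (n = 3) beside them. AADAC and AADACP1 drop from control means of 6.52 and 7.22 to 3.72 and 4.29, NCEH1 of knockdown clone 2 (10.7) lies among the control clones, and AADACL2 stays below 3.1 on every array.

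AADACP1 and AADAC ranked 3 and 4 from the largest decrease among the 54613 probe sets, which is part of how they came to be chosen. The clone order differed between them. Knockdown clone 3 was the lowest on AADAC and the highest on AADACP1, while control clone 3 was the highest on both. Knockdown clone 3 was also the clone with the least WASF3 signal (23.8%), and knockdown clone 2 the one with the most (57.5%). Clone 2 had 15.4% of the AADAC and 13.1% of the AADACP1 signal left. The SD among knockdown clones was 0.20 for AADAC and 0.03 for AADACP1, against a median of 0.16 over all probe sets, and among control clones 0.17 and 0.08 against 0.09.

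AADAC and its pseudogene are related in sequence, so the probe sets of these 2 genes may detect each other's transcript. Both names end in _at without _s or _x, the form the array maker gave to probe sets designed against a single transcript, and the platform annotation ties each to 1 gene. Neither the probe sequences nor the transcript sequences were used here, so how much of the AADACP1 signal comes from AADAC, or the reverse, was not tested and the 2 decreases are not counted as independent. Over the 6 arrays the 2 probe sets had a Pearson correlation of 0.99, which the groups themselves produce, and their deviations from the group means correlated at 0.23. The NCEH1 probe set 225847_at has the same form of name. NCEH1 lies far from the pair in gene order.

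NCEH1 was among the brighter signals of the array, with 94.7% to 96.7% of all probe sets reading lower. Its log2 signal was 10.8, 10.8 and 10.6 in control clones 1, 2 and 3 and 10.1, 10.7 and 10.2 in knockdown clones 1, 2 and 3. Clones 1 and 3 of the knockdown lay below every control clone, at 67.4% and 68.5% of the control mean, and clone 2 lay inside the control range at 100.5%. The means were 10.7 ± 0.11 in control and 10.3 ± 0.33 in knockdown clones (SD, n = 3), a difference of −0.37 (SE 0.16, 95% interval −0.75 to 0.01). Without clone 2 the difference was −0.56. A fit that adds the 3′ minus 5′ index gave −0.14 (SE 0.28). AADAC and AADACP1 gave −2.86 (SE 0.24) and −2.91 (SE 0.15) in that fit.

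Of the 3 probe sets, 2 (AADAC and AADACP1) passed an adjusted p under 0.05 in limma, where 0.558% of all 54613 probe sets were called and 0.308% were called lower. The groups did not overlap on the same 2, as on 11.1% of all probe sets in that direction. The membership rests on this contrast, so nothing is read from these counts. In the fit that adds the 3′ minus 5′ index 1 probe set (AADACP1) was called on the whole array, against 305 without that term. Nothing is read from that call either, for the same reason. The AADAC difference in that fit was −2.86.

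**Figure D2:**
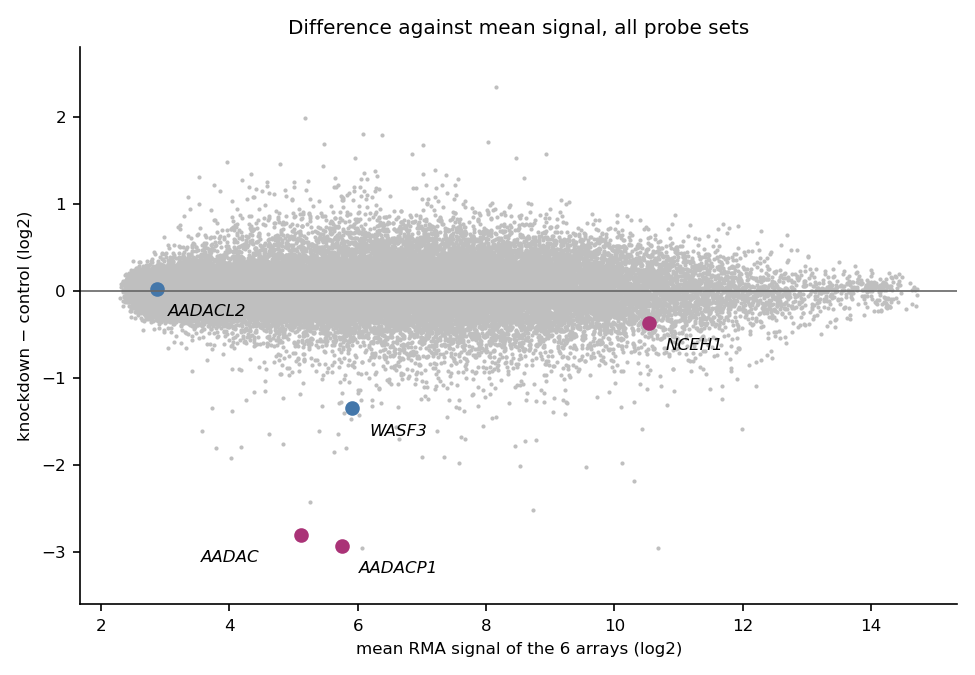
Knockdown minus control difference (vertical axis, log2) against the mean RMA signal of the 6 arrays (horizontal axis, log2) for every probe set that is not a control (grey), with the 3 family genes in purple and AADACL2 and WASF3 in blue. AADAC (−2.81) and AADACP1 (−2.93) sit at the lower edge of the plot at moderate mean signal, and NCEH1 (−0.37) lies within the cloud at high signal.

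The other relatives of AADAC were not part of the choice. AADACL2, the gene next to AADACP1 among those measured, read 2.88, 2.79 and 2.91 in control and 2.70, 2.94 and 3.01 in knockdown clones 1, 2 and 3. These values were near the bottom of every array (4.17% to 11.6% of probe sets read lower), and the difference of 0.03 (SE 0.11, 95% interval −0.23 to 0.28) did not pass (limma, adjusted p = 0.948). A fall from such a level could not be seen. AFMID, an arylformamidase of tryptophan breakdown with the same fold, read 5.46, 5.62 and 5.49 in control and 5.97, 5.58 and 4.64 in knockdown clones, a difference of −0.13 (SE 0.30, adjusted p = 0.899 in limma). Its knockdown clones lay on both sides of the control clones. AADACL3, AADACL4 and AADACL2-AS1 were not analysed here.

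No gene on either side of the AADAC pair was called. Of the 20 nearest measured genes, 10 on each side, 0 passed in limma in either direction, where 0.738% of 19775 genes were called. By unadjusted p under 0.05, 0 were higher and 4 lower, against 9.11% and 7.67% of all genes. The differences ran from −0.69 to 0.21 with a median of −0.05, beside −0.01 over all genes. SUCNR1, the succinate receptor next to AADAC, gave 0.10 (SE 0.09) from 3.59 ± 0.05 in control clones. IGSF10, an immunoglobulin-superfamily protein beyond AADACL2, gave 0.02 (SE 0.09) from 4.49 ± 0.04.

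Most of these neighbours had little signal. In 13 of the 20 the mean over the arrays was below 5 on the log2 scale, which leaves little room to measure a decrease. The 7 with a mean of at least 5 all had a lower mean in knockdown clones, with a median of −0.32. The share lower among all genes of such signal was not counted, so no decrease of the region is read from this. One of the 7 was MBNL1, a splicing regulator beyond SUCNR1. Its main probe set differed by −0.47 (SE 0.11, limma adjusted p = 0.111), from 11.3 ± 0.04 to 10.8 ± 0.17 (SD, n = 3). Of its 7 probe sets, 6 had a lower mean in knockdown clones and none passed (lowest limma adjusted p = 0.111, with 5 by unadjusted p under 0.05). RAP2B, a RAS-related GTPase named after its value was seen, had the lowest difference of the region at −0.69 (SE 0.18, adjusted p = 0.141 in limma), and 3 of its 4 probe sets were lower.

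Around NCEH1, 0 of the 20 nearest measured genes passed in limma, which is near the 0.738% called over all genes. By unadjusted p under 0.05, 1 was higher and 3 lower, against 9.11% and 7.67% of all genes. The median was −0.08, beside −0.01 over all genes. In 11 of the 20 the mean was below 5. Of the other 9, 6 had a lower mean in knockdown clones, and the median of the 9 was −0.12. As around AADAC, the share lower among all genes of such signal was not counted, so no decrease is read from this. TNFSF10, the death ligand TRAIL next to NCEH1, had 3 probe sets with differences of −0.75, −0.90 and −0.93, none of which passed (limma, adjusted p from 0.113 to 0.163). ECT2, a protein needed for cell division, on the other side gave 0.03 (SE 0.14), and GHSR, the ghrelin receptor, and SPATA16, a testis protein, gave 0.01 (SE 0.09) and 0.08 (SE 0.09). Without knockdown clone 1 the chromatin regulator TBL1XR1, named after its value was seen, passed among these neighbours.

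**Figure D3:**
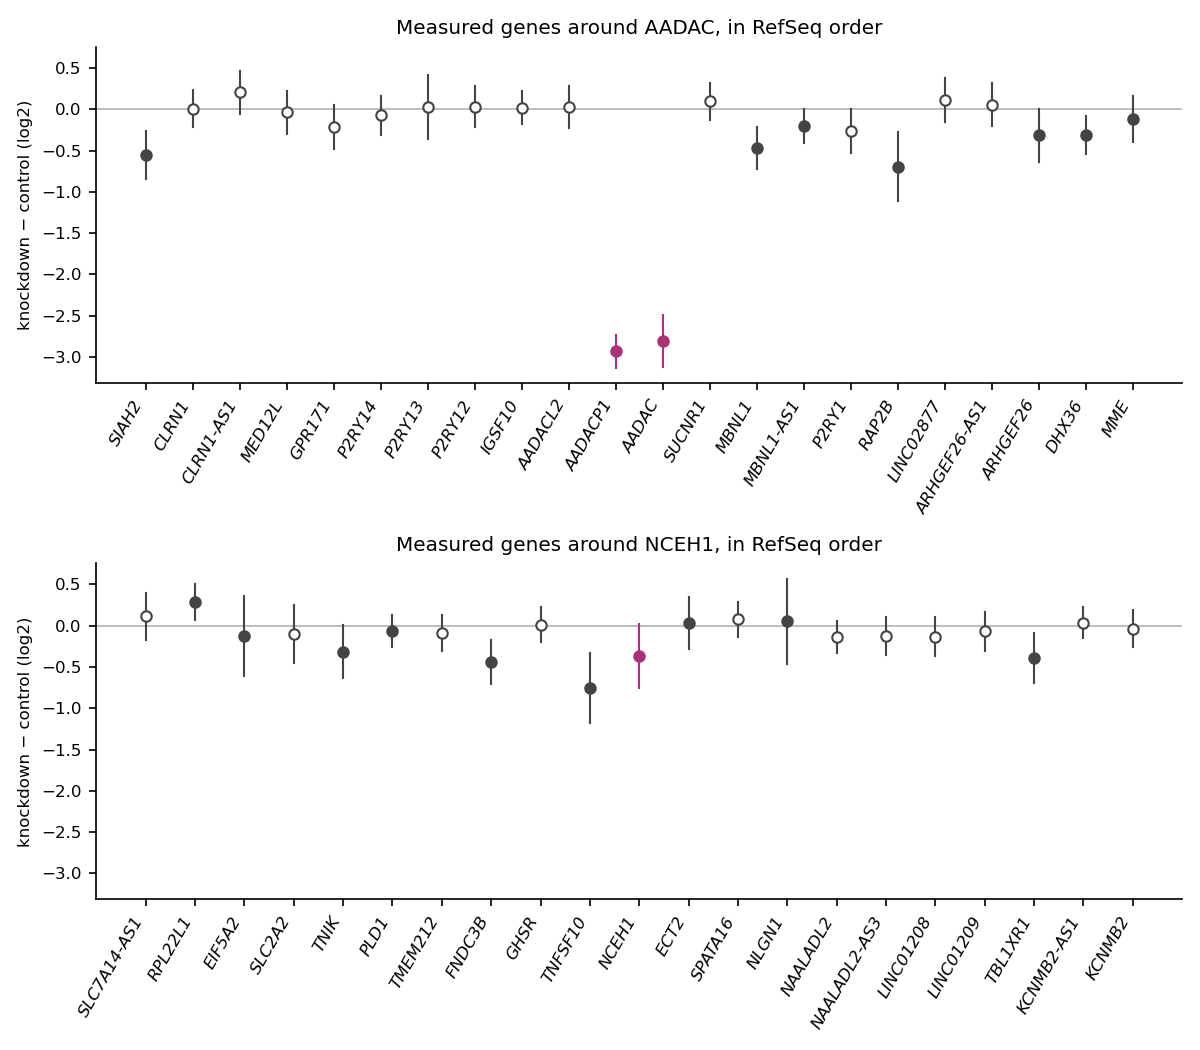
Knockdown minus control difference (vertical axis, log2) with its 95% interval for the measured genes around AADAC (top) and NCEH1 (bottom), in their order along chromosome 3 in the RefSeq table. Filled points have a mean log2 signal of at least 5, open points less, and purple marks AADAC, AADACP1 and NCEH1. AADACP1 and AADAC stand at −2.93 and −2.81, while the other genes around AADAC lie between −0.69 and 0.21.

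Neutral lipid hydrolysis, the process to which AADAC and NCEH1 are closest, was read in 27 measured genes of lipolysis and lipid droplets. In this list 2 fell and 0 rose in limma, beside 0.42% called lower and 0.319% called higher over all genes, with a median of −0.14 beside −0.01. The list was drawn up with earlier results of these arrays known, so nothing is read from the count against that share. LIPG, the endothelial phospholipase, read 6.63, 6.18 and 6.75 in control and 5.10, 5.16 and 4.36 in knockdown clones 1, 2 and 3, so that the groups did not overlap. The decrease in LIPG was −1.65 (SE 0.24, adjusted p = 0.0441 in limma). G0S2, an inhibitor of the triacylglycerol lipase PNPLA2, read 9.79, 9.79 and 9.83 in control and 9.27, 9.22 and 9.05 in knockdown clones. The decrease in G0S2 was −0.62 (SE 0.09, adjusted p = 0.0458 in limma). By unadjusted p under 0.05, 2 of the 27 were higher and 7 lower, LIPG and G0S2 included, against 9.11% and 7.67% of all genes. Nothing is read from these counts either, because of how the list was drawn up. PNPLA2 gave −0.12 (SE 0.09), and the hormone-sensitive lipase LIPE, whose catalytic domain resembles that of AADAC, gave −0.03 (SE 0.14) at a control level of 4.72 ± 0.21. PNPLA2 and LIPE were named after their values were seen. Without any 1 control clone, or without knockdown clone 2, neither gene passed (limma, adjusted p from 0.0776 to 0.292), while the differences stayed at −1.82 to −1.53 for LIPG and −0.64 to −0.61 for G0S2. Over all probe sets those fits called 3 to 33, against 305 with every clone.

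Cholesteryl ester turnover, the macrophage role of NCEH1, was read in 16 measured genes. Of these, 0 passed in limma, which is near the 0.738% called over all genes. By unadjusted p under 0.05, 2 were higher and 1 lower, against 9.11% and 7.67% of all genes. ABCA1, the sterol efflux pump, read 9.02, 9.00 and 9.00 in control and 7.78, 8.50 and 7.44 in knockdown clones 1, 2 and 3. All knockdown clones were lower, and the difference of −1.10 (SE 0.24) did not pass (limma, adjusted p = 0.102). It passed without knockdown clone 2 (−1.40, adjusted p = 0.0426) or clone 3 (−0.87, adjusted p = 0.0464), and with array weights (−0.91, adjusted p = 0.0441). Of its 4 probe sets another gave −1.21 (adjusted p = 0.145), 2 gave 0.01 and −0.07, and the mean over all gave −0.59 (adjusted p = 0.113). LIPA, the lysosomal acid lipase, gave 0.45 (SE 0.15, adjusted p = 0.252), with knockdown clones 1 and 2 at 9.40 and 9.38 and clone 3 at 8.87, inside the control range. Without clone 3 LIPA gave 0.62 and passed (adjusted p = 0.0186). The mean of its probe sets gave 0.28.

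Ether lipid synthesis and turnover, the pathway in which NCEH1 acts in cancer cells, was read in 25 genes. Of these, 1 rose and 0 fell in limma, beside 0.319% called higher and 0.42% called lower over all genes. By unadjusted p under 0.05, 3 were higher and 1 lower, against 9.11% and 7.67% of all genes. The list median was 0.11, beside −0.01 over all genes. LPAR1, a receptor for lysophosphatidic acid, read 9.18, 9.15 and 9.25 in control and 9.96, 9.78 and 9.81 in knockdown clones 1, 2 and 3. The increase in LPAR1 was 0.66 (SE 0.09, adjusted p = 0.0391 in limma) on the brightest of its 3 probe sets. The other probe sets of LPAR1 gave 0.47 and 0.24 and did not pass (adjusted p = 0.212 and 0.401). Without any 1 control clone, or without knockdown clone 2, LPAR1 did not pass (adjusted p from 0.0750 to 0.278), with a difference of 0.64 to 0.70. With the mean of its probe sets it gave 0.46 (adjusted p = 0.0676).

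Other enzymes of ester hydrolysis were read in a list of 15 serine and related esterases. Of these, 0 were called in limma, which is near the 0.738% called over all genes. By unadjusted p under 0.05, 1 was higher and 0 were lower, against 9.11% and 7.67% of all genes. The lactonase PON3 gave 0.65 (SE 0.17, adjusted p = 0.157), and its relative PON2 gave 0.18 (SE 0.10, adjusted p = 0.459). For both genes every knockdown clone lay above every control clone. The share of all genes so separated in that direction was not counted, so nothing is read from it. PON2 was read on the brightest of its 3 probe sets, and their mean gave 0.08 (limma adjusted p = 0.654). Of 25 drug-metabolising genes of the endoplasmic reticulum and cytosol, 0 were called, again near that share (1 higher and 4 lower by unadjusted p under 0.05). SULT1A1, a sulfotransferase of phenolic drugs, gave −0.55 (SE 0.09, adjusted p = 0.0582). SULT1A1 passed without knockdown clone 3 (−0.49, limma adjusted p = 0.0310) and with array weights (−0.51, limma adjusted p = 0.0331). The mean of its probe sets gave −0.38 and did not pass (limma adjusted p = 0.0572). POR, the electron donor of microsomal cytochromes P450, gave −0.82 (SE 0.20, adjusted p = 0.134) and passed without knockdown clone 1 (−1.06, adjusted p = 0.0178), the clone nearest to the control level at 8.16. POR also passed with array weights (−0.81, limma adjusted p = 0.0317).

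**Figure D4:**
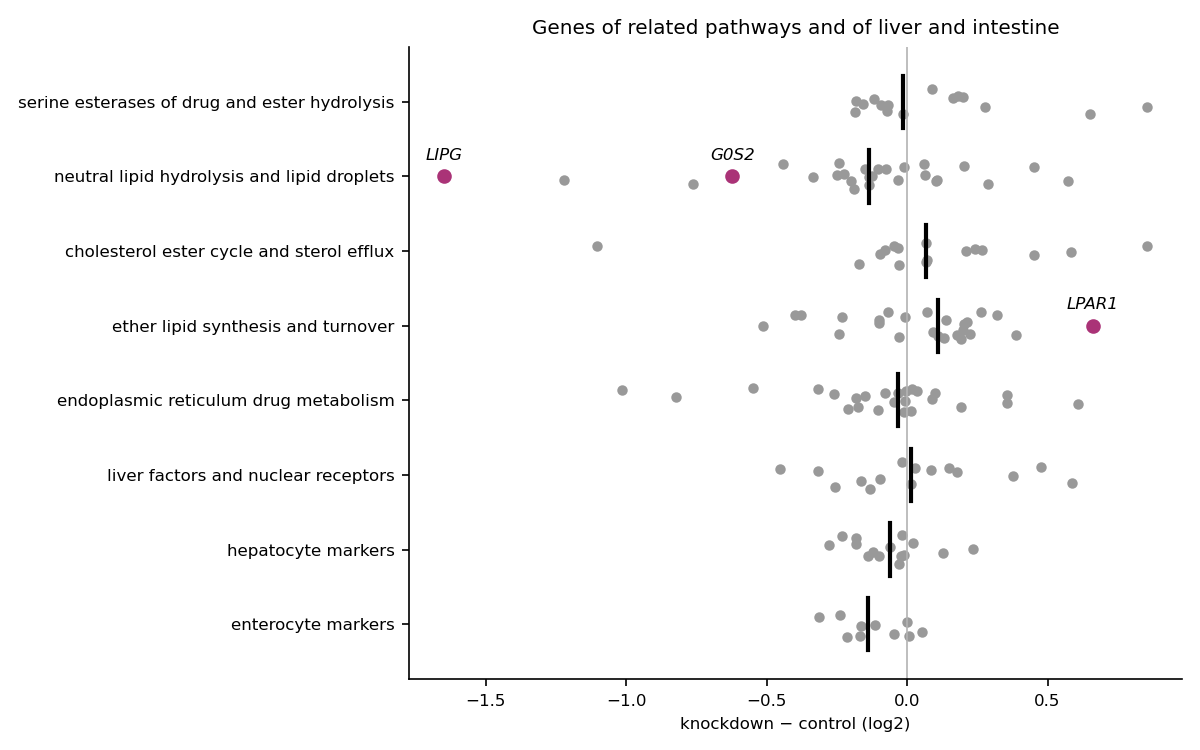
Knockdown minus control difference (horizontal axis, log2) of the measured genes in 8 lists, one point per gene, with a black bar at the list median and purple points for genes past an adjusted p under 0.05. LIPG (−1.65), G0S2 (−0.62) and LPAR1 (0.66) are the called genes, and the medians run from −0.14 to 0.11.

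Transcription factors of liver gene expression and nuclear receptors, such as those that drive AADAC in liver, were read in 15 genes, and 0 were called (1 higher and 1 lower by unadjusted p under 0.05). Over all genes 0.738% were called, so 0 in this list and in the marker lists below is near that share. By unadjusted p under 0.05, 9.11% of all genes were higher and 7.67% lower. PPARD, a fatty acid receptor, gave 0.48 (SE 0.15, adjusted p = 0.213 in limma) and passed without knockdown clone 1 (0.64, adjusted p = 0.0308), while the mean of its probe sets gave 0.27. The forkhead factor FOXA1 gave −0.26 (SE 0.11) at a control level of 3.31 ± 0.12. Markers of tissues rich in AADAC had mean levels below the array medians. The mean log2 level of 15 hepatocyte markers was 4.68 to 4.83 in knockdown and 4.74 to 4.83 in control clones. Of the 15, 9 had a mean over the arrays below 5 and the rest did not. Albumin (ALB), among the low ones, read 3.04 ± 0.08 in control clones. None of the 15 hepatocyte markers (0 higher and 0 lower by unadjusted p under 0.05) and none of the 10 enterocyte markers (0 higher and 1 lower) passed in limma. Lowest in unadjusted p were FGB (−0.28) and APOA1 (0.24) for hepatocytes, and APOA4 (−0.24) and VIL1 (−0.21) for enterocytes. The enterocyte list was at 4.27 to 4.37 in knockdown and 4.43 to 4.48 in control clones, with 8 of the 10 at a mean below 5. The 10 macrophage and leukocyte markers, cells in which NCEH1 is known, had a mean level of 4.65 to 4.75 in knockdown and 4.76 to 4.80 in control clones, and 0 were called (0 higher and 1 lower by unadjusted p under 0.05). Of these 10, 5 had a mean below 5 and the rest did not. Those of lowest unadjusted p were MARCO (−0.27) and CD14 (−0.32). The part of other cell types in the AADAC values was not tested. In a cloned line, fewer cells with a transcript and less of it per cell cannot be told apart.

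The patterns most like AADAC over the 6 arrays were found by Pearson correlation among the 3271 probe sets with 1 symbol that span at least 1 log2 unit. Leaving out AADACP1, the 5 highest were BLTP3B (0.997), a bridge-like lipid transfer protein, 2 probe sets of ANGPTL4 (0.997 and 0.991), a secreted inhibitor of lipoprotein lipase, the protocadherin PCDHB14 (0.993) and the cell-surface mucin MUC1 (0.991). The group difference makes most of such a value. Deviations from the group means correlated with those of AADAC at 0.82 for BLTP3B, 0.91 and 0.77 for ANGPTL4, 0.92 for PCDHB14 and −0.03 for MUC1, over the same 6 arrays. The 5 were picked as the highest of 3271 on these arrays, which favours deviations that follow AADAC. Nothing is read from these deviation values. ANGPTL4, on its brighter probe set, read 9.67, 9.66 and 9.68 in control and 8.46, 8.45 and 8.40 in knockdown clones 1, 2 and 3. Like AADAC it was lowest in knockdown clone 3 and highest in control clone 3, though the ANGPTL4 values within each group were almost level. The choice by correlation with AADAC favours a shared clone order, so nothing is read from it. NCEH1 correlated with AADAC at 0.69 over the arrays and at 0.11 in the deviations.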

How the data were processed

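RNA of 6 clones was labelled by a 3′ amplification protocol for an Affymetrix array, per the labels' protocols. Per the submitters' processing notes, the authors used RMA (Affymetrix Expression Console 1.0), and the deposited values have the range of log2 signals. RMA gives all arrays one distribution, which hides any shift common to most genes. The number of arrays, 3 a group, limits the precision. Scanner files and probe sequences were not used here.

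The platform annotation gave gene symbols, updated by identifier from a RefSeq table of GRCh38.p14 (41037 of the 41091 probe sets with 1 symbol matched, and 62 control probe sets were left out). Gene order and the promoter coordinates came from RefSeq tables of that assembly. No build is named for the array, so probe sets have no positions here. Limma 3.58.1 (lmFit and eBayes, R 4.3.3) was fitted to all 54613 probe sets with group as the only term. Tests were two-sided with Benjamini-Hochberg adjustment over all probe sets and a threshold of 0.05, and the fit was tested on simulated data. A listed gene was read on its brightest probe set.

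The family members and the 13 lists (199 genes, 175 measured outside the family) were chosen with earlier results of these data known. The rule for named genes took all family probe sets, WASF3, measured relatives, up to 4 called genes a list (or the 2 of lowest unadjusted p where none was called), called neighbours with the 2 nearest a side, and the 5 patterns most like AADAC. VIM, GATA3, PGR and ALB were named outside this rule. Alternatives left out each clone, used the replicate number as a block, centred arrays on their median, added the 3′ minus 5′ index, used an intensity trend, array weights or a mean above 5, or averaged probe sets.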

Additional observations from a re-analysis of the deposited data

How the results depend on the processing

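The AADAC difference stayed between −2.89 and −2.69 and the AADACP1 difference between −2.96 and −2.88 over 13 alternatives each, of which the 6 that left out 1 clone covered the same range. NCEH1 kept its sign in all 13 and ran from −0.56 to −0.14, with −0.56 to −0.27 when 1 clone was left out. The count of family probe sets past the threshold was 2 in the main fit and in 12 of 13 alternatives, and 1 when the 3′ minus 5′ index was added. The family was chosen on this contrast, so nothing is read from that count. WASF3 ran from −1.63 to −0.99 when 1 clone was left out, in alternatives chosen after seeing the data, and passed without knockdown clone 3 (−0.99) and with array weights (−1.16), and in none of the other 11. Called genes over the 13 lists numbered 3, and ran from 0 to 17 when 1 clone was left out (9, 1 and 17 without knockdown clones 1, 2 and 3, and 0 without any 1 control clone). Calls over all 54613 probe sets moved likewise, from 305 to 1465, 33 and 2493 without knockdown clones 1, 2 and 3 and to 3, 5 and 3 without control clones 1, 2 and 3. List calls came to 0 with the 3′ minus 5′ index, 0 with an intensity trend, 12 with array weights, 5 with the mean of all probe sets, and 2 with arrays centred on their median. Neighbour calls stayed at 0 except without knockdown clone 1 (1 gene), a range of 0 to 1. The cause of these shifts was not tested, beyond fewer arrays or residual degrees of freedom in the fits that drop a clone or add a term. With the replicate number as a block, list calls came to 0. Same-numbered clones did not deviate together (correlations −0.07, −0.10 and −0.04), so the samples share only a number. Among 31 other named genes, 337 of 392 values kept direction and side, 23 lost and 14 gained the call, and 18 changed sign. The sign changes were all of genes that never passed. When 1 clone was left out AADACL2 ran from −0.039 to 0.119, AFMID from −0.41 to 0.25, ECT2 from −0.051 to 0.174, GHSR from −0.034 to 0.044 and IGSF10 from −0.019 to 0.058. The index as a covariate gave ECT2 −0.10, IGSF10 −0.076 and SPATA16 −0.012. Array weights gave IGSF10 −0.0032, and the mean of all probe sets gave ECT2 −0.078, GHSR −0.022 and IGSF10 −0.025. Low signal limits AADAC and AADACP1 in knockdown clones and most of their neighbours.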

Other observations

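MGLL, the monoacylglycerol lipase that takes the last step of triacylglycerol breakdown, lay just outside the rule for named genes and was chosen after its values were seen. It read 10.3, 10.3 and 10.4 in control clones 1, 2 and 3 and 9.12, 8.65 and 9.58 in knockdown clones 1, 2 and 3, so the groups did not overlap. The difference was −1.22 (SE 0.21) on the brighter of its 2 probe sets and −0.99 (SE 0.23) on the other, and neither passed over all probe sets (limma, adjusted p = 0.0621 and 0.113). PLIN2, a coat protein of lipid droplets also chosen after its values were seen, gave −0.44 (SE 0.18, adjusted p = 0.338 in limma), with knockdown clone 3 at 11.0 among the control clones. DDHD1 of the same list, likewise chosen after its values were seen, went the other way. It gave 0.57 (SE 0.14, adjusted p = 0.136 in limma), with every knockdown clone above every control clone.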
